A study of Sus scrofa with 6 samples.

Results

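The nuclear-encoded subunits of the oxidative phosphorylation system were taken from the deposited abundance table of porcine 2-cell embryos by their gene names: the NDUF subunit names, SDHA to SDHD, the UQCR names, CYC1, the COX names from COX4A to COX8C, and names that begin with ATP5. The rule found 65 of 17678 genes, of which 29 belong to complex I, 4 to complex II, 5 to complex III, 14 to complex IV and 13 to complex V. The gene name COX4I1 and the carrier CYCS are not reached by this rule and were listed apart. NDUFA4 and NDUFA4L2 were placed in complex IV, where the NDUFA4 protein is found. The rule reads gene names only, although it was set when earlier results of these data were known.

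The study asked how early embryos fare when SIN3A, the scaffold of a histone deacetylase corepressor complex, is depleted. Mature oocytes of crossbred pigs, from slaughterhouse ovaries, were injected with non-specific siRNA (NC) or with a mix of 3 siRNAs against SIN3A (KD) and then activated without sperm. All embryos were therefore parthenogenetic, and polyadenylated RNA was sequenced from 3 replicates of 20 pooled 2-cell embryos in each group at 32 h after activation. The study describes its replicates as independent, and the sources used here do not say whether each came from its own batch of oocytes, so the spread between them may be partly technical.

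The knockdown was seen in every library. The 3 NC libraries held 37361, 33964 and 32404 of SIN3A and the 3 KD libraries 3271, 1079 and 4173, so 8.22% of the NC mean remained (log2 fold change -3.81, standard error (SE) 0.31, limma adjusted p = 8.45e-06, and 0.423 without the variance trend). The study states a smaller reduction of SIN3A mRNA from its RNA-seq, and the reason for the difference was not tested. Depth, estimated from the step between low values, was 7800000 to 15800000 reads per library. Of 18 oocyte markers listed, 13 were found and together made up 0.811% to 0.985% of each library, least in KD replicate 3. Of 18 cumulus and granulosa cell markers listed, 14 were found and summed to at most 0.00922%. Most of this came from VCAN, at 735 to 925 over the 6 libraries. FST was at 38.0 to 77.1, NR5A1 at 16.1 to 37.7, STAR at 5.29 to 23.4 and INHBA at 6.81 to 17.7. In each library 2 to 4 of these 14 markers were listed at 0. AMHR2 was listed at 0 in 5 of the 6 libraries, and CYP19A1, which marks granulosa cells, was at 10.7 or below in each of them. Fewer cells of a type and less RNA per cell cannot be told apart in pooled embryos.

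Oxidative phosphorylation makes ATP in the inner mitochondrial membrane. Complexes I and II feed electrons into the chain, complexes III and IV pass them on to oxygen and, with complex I, pump protons, and complex V lets the protons back through its membrane rotor to drive ATP synthesis. Every complex except complex II combines nuclear-encoded subunits with subunits encoded by mitochondrial DNA. Early embryos before the blastocyst stage rely on mitochondria inherited from the oocyte, and the nuclear transcripts measured at the 2-cell stage in pigs are largely maternal.

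The members had short transcripts, and elements known from respiratory genes were found in some of their promoters. RefSeq (Sscrofa11.1) gave an mRNA for 55 of the 65 members. The median length of the longest mRNA was 836 bases over the 48 tested members with a length, against 3728 bases over 9769 tested genes. An mRNA under 1000 bases was found for 31 of these 48 members (64.6%) and for 4.09% of all tested genes with a length. Median GC content was much the same, 51.5% in members and 50.7% in all tested genes. Promoters were searched from 250 bases before to 50 bases after each start, on both strands, for the letters of 3 known elements. The element of NRF1, a transcription factor of respiratory genes, was searched with 1 letter in its middle left free and was present in 10 of 55 member promoters (18.2%) and in 6.07% of 20667 promoters. The ETS element CCGGAAGT was present in 7 (12.7%, against 4.49% of all promoters), and the YY1 element AAGATGGCG in 4 (7.27%, against 1.42%). These matches are letters in a window and not measured binding. Windows of 30 bases around the NRF1 letters are shown for 5 members from 3 complexes to let the shared element be seen. The capitals mark the NRF1 letters, or their reverse complement in COX7A2, and each sequence is written on the strand of its gene.
COX5B: aggcacaggtGCGCAAGCGCaggccttgcc
COX7A2: agttttccagGCGCTTGCGCgagacctgag
NDUFS6: cgaccgcaccGCGCATGCGCgcctcccagg
NDUFB10: cgtccgttctGCGCAGGCGCggccgccggc
UQCR10: gtcggtcgaaGCGCAGGCGCggtggtgcta
In Sscrofa11.1 the COX5B window lies at chr3:56632252-56632281 on the minus strand and its element begins 164 bases before the start. The COX7A2 window lies at chr1:90696717-90696746 on the plus strand, with the element 19 bases before the start. The NDUFS6 window is at chr16:79000050-79000079 on the minus strand, with the element 68 bases before the start, and here the letters read the same on both strands. The NDUFB10 window is at chr3:40005619-40005648 on the minus strand and its element begins 12 bases inside the transcript. The UQCR10 window is at chr14:46783317-46783346 on the plus strand, with the element 13 bases before the start.

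Levels were compared between genes only as NC abundance per kb of the longest mRNA. The 48 tested members with a length spanned 3.44 per kb for NDUFA4L2 to 806 per kb for ATP5MC3, a 234-fold range, with a median of 89.2 per kb. The median over all tested genes with a length was 60.2 per kb. Of the 4 complex II subunits, 3 stood above the median of all genes, with 450 ± 31.3 per kb for the flavoprotein SDHA, 683 ± 69.5 for the iron-sulfur subunit SDHB and 418 ± 33.7 for the membrane anchor SDHC (SD, n = 3 each), whereas the other anchor, SDHD, was at 53.3 ± 14.9 per kb. The levels per kb of SDHA and SDHC lay within about 1 SD of each other. In complex I the highest were the accessory subunits NDUFA1 (499 ± 26.3 per kb) and NDUFA6 (402 ± 52.2 per kb). Among the 8 complex IV members with a length, they were COX6C (613 ± 67.2 per kb) and COX6A1 (546 ± 12.4 per kb). COX6C and COX6A1 differed by less than 1 SD of COX6C. In complex V the highest were ATP5MC3 (806 ± 114 per kb) and the catalytic-head subunit ATP5F1A (429 ± 5.94 per kb). From the lowest to the highest member, levels per kb differed 125-fold in complex I, 178-fold in complex IV, where the lowest is the isoform NDUFA4L2, and 80.4-fold in complex V. With the median in place of the longest mRNA length these ranges were 122-fold, 104-fold and 48.6-fold. The range over all 48 members was then 197-fold, with NDUFA5 the lowest at 4.1 per kb and NDUFA4L2 at 6.01 per kb. For 9 tested members no length was matched, 4 of them in complex III and 5 in complex IV, so these are not placed in this order. They include COX7A2L and COX8A, with NC means of 1035 and 820 before division by length. Those of COX6C and COX6A1 were 288 and 302.

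**Figure D1:**
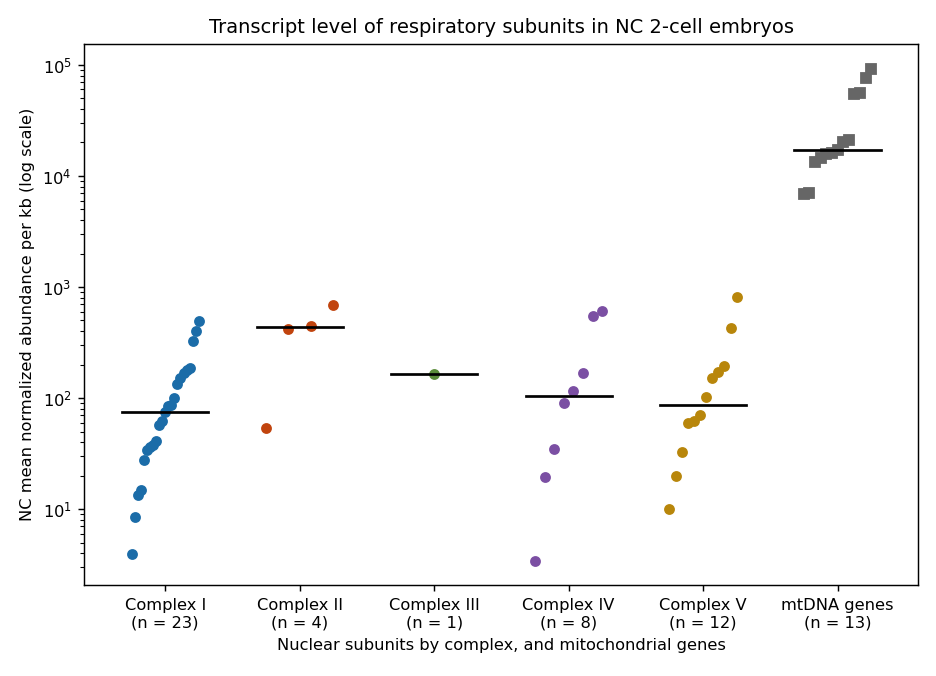
Mean normalized abundance per kb of the longest mRNA in the 3 NC libraries, on a log axis, for the 48 tested members with a length by complex and for 13 mitochondrially encoded genes. Each point is a gene and each line the median of its column; the mitochondrial genes lie from 6829 to 92523 per kb and every nuclear member at 806 per kb or below.

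The 13 mitochondrially encoded genes of the same complexes stood far above their nuclear partners. Their NC levels ran from 6829 to 92523 per kb with a median of 17287 per kb. The lowest of them was above the highest nuclear member with a length. The 13 genes held 3.30% to 3.71% of the summed values of a library, while all 65 members together held 0.0812% to 0.0932%. The libraries were made from polyadenylated RNA, so the mitochondrial levels depend on the tails of these transcripts.

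No member passed the test between NC and KD embryos. It was run by limma on log2(value + 1) with Benjamini-Hochberg adjustment over 11986 genes. Of the 57 members with a mean of at least 10, 0 had a limma adjusted p below 0.05. Of all genes tested 0.159% passed, as 0.0584% of all genes were called higher and 0.1% of all genes lower in KD. The adjusted p of the members ran from 0.89 to 1.0. At an unadjusted p below 0.05 by limma there were 5 members with KD below NC (ATP5F1C, NDUFV2, ATP5MC1, ATP5MC2 and COX7C) and 0 with KD above NC, against 2.38% and 2.24% of all genes, 4.61% together. The 5 became 1, 2 and 3 without NC replicates 1, 2 and 3 in turn, and 6, 3 and 2 without KD replicates 1, 2 and 3. KD values lay wholly below NC values in 6 of the 57 members (NDUFB10, COX7C, COX6A1, ATP5F1C, ATP5PO and ATP5MC1), against 4.94% of all genes. They lay wholly above in 1 member, against 4.85% of all genes, and 9.79% of all genes were separated in either direction. ATP5MC1, which is in both counts of KD below NC, had a KD mean of 6.51. It reached the minimum mean of 10 only through its NC values. The log2 fold change was below 0 in 35 of 57 members (61.4%) and in 49.4% of all genes, and the median was -0.08 in members and 0.00 in all genes.

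**Figure D2:**
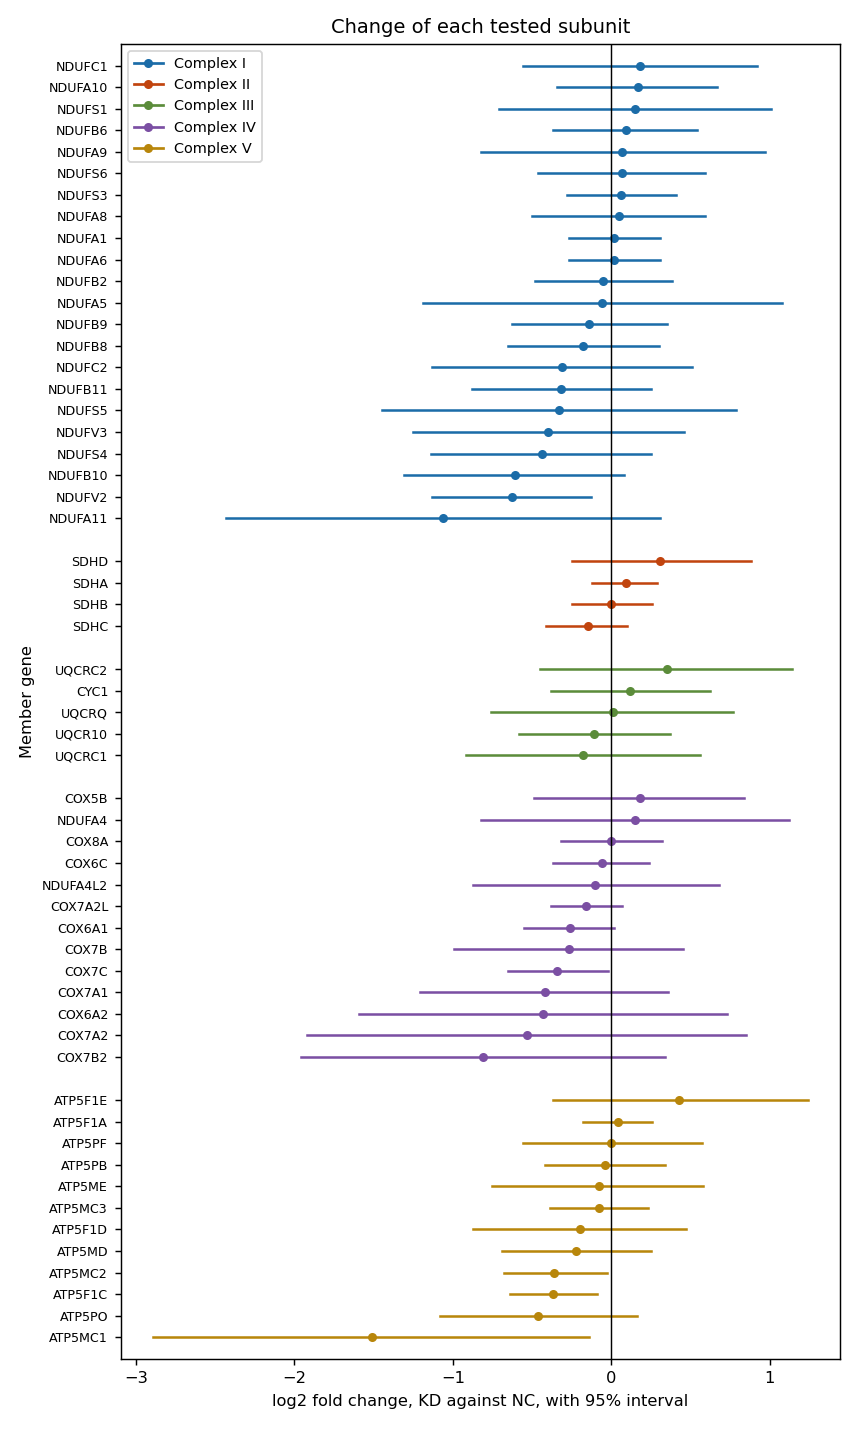
Log2 fold change of KD against NC (x axis) for 56 of the 57 tested members (y axis), with 95% confidence intervals from limma, coloured by complex. In complex IV 11 of 13 points and in complex V 9 of 12 points lie left of 0, and the intervals widen for the members with low values.

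How tightly a change was bounded depended on abundance. For 39 of the 57 members the 95% confidence interval of the fold change lay within 2-fold in either direction. Of 20 members with an NC mean of at least 100, 19 were bounded in this way, and the median SE was 0.14 on the log2 scale. Of 24 members with an NC mean below 50, 7 were bounded within 2-fold, with a median SE of 0.38, so a 2-fold change was not excluded in most of these. Over all 57 members the median SE was 0.27. The intervals do not give the size of change that would have passed the adjusted p. Fold changes on the log2(value + 1) scale understate the change of the lowest genes.

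Complex I oxidizes NADH and holds the largest set of members, 23 of 29 tested, with a median log2 fold change of -0.05. Among its core subunits, NDUFV2, an iron-sulfur subunit of the NADH arm, was chosen after its values were seen, because it had the second lowest adjusted p of the members. Its values were 165, 171 and 126 in NC and 132, 111 and 64.6 in KD embryos. KD replicate 1 lay above NC replicate 3, so the groups overlapped, and the log2 fold change was -0.63 (SE 0.24, limma adjusted p = 0.942). Without KD replicate 3 it was -0.33.

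Among the accessory subunits of complex I, which surround the core, NDUFB10 (ENSSSCG00000030328, chromosome 3 from 40003109 to 40005650) had values of 30.2, 30.7 and 41.0 in NC and 20.4, 21.6 and 23.0 in KD embryos. The groups did not overlap (exact two-sided permutation p = 0.1, the smallest a design of 3 libraries against 3 can reach), and the log2 fold change was -0.61 (SE 0.33, limma adjusted p = 0.997). Any member without overlap has this permutation p, so here and below it adds nothing to the lack of overlap. The largest negative fold change of the complex was that of NDUFA11, a membrane-arm subunit, with 33.5, 14.7 and 13.5 in NC and 23.4, 10.1 and 2.18 in KD embryos. NC replicate 1 and KD replicate 3 stood far from the others of their group, the groups overlapped, and its log2 fold change of -1.06 had an SE of 0.65 and was -0.27 without KD replicate 3 and -1.74 without KD replicate 1. The most abundant accessory subunits were closely bounded. NDUFA1 was at 355 ± 18.7 in NC and 362 ± 54.2 in KD (SD, n = 3), with a 95% interval of -0.27 to 0.31 on the log2 scale, and NDUFA6 had the same interval.

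Complex II oxidizes succinate and is built from nuclear subunits alone. SDHA had values of 1111, 1240 and 1268 in NC and 1335, 1277 and 1223 in KD embryos, giving a log2 fold change of 0.09 (SE 0.10). SDHB had values of 595, 622 and 510 in NC and 609, 599 and 520 in KD embryos, with a log2 fold change of 0.00 and a 95% interval of -0.25 to 0.26. SDHC was at 567, 599 and 510 against 555, 499 and 454, a log2 fold change of -0.15. All of these overlapped between groups and were bounded well within 2-fold. SDHD, with 48.1, 36.7 and 64.3 in NC and 69.2, 58.6 and 54.5 in KD embryos, had a log2 fold change of 0.31 (SE 0.27, limma adjusted p = 0.997) and also overlapped.

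Complex III passes electrons from ubiquinol to cytochrome c, and its 5 members had a median log2 fold change of 0.01. The core-protein subunits UQCRC1 and UQCRC2 had the outermost fold changes of the complex, -0.18 (SE 0.35) and 0.35 (SE 0.38), and that of UQCRC2 ran from 0.09 to 0.68 when a library was left out. UQCRC2 was at 21.9, 20.5 and 23.9 in NC and at 17.5, 31.7 and 40.5 in KD embryos, so the KD libraries lay on both sides of the NC libraries. UQCRC1 was at 99.8, 67.3 and 42.1 in NC and 80.5, 74.4 and 32.2 in KD embryos, a wide spread within both groups. The small subunit UQCR10 was at 71.2 ± 4.22 in NC and 66.4 ± 9.27 in KD (SD, n = 3), and its level was 165 per kb in NC.

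Complex IV is cytochrome c oxidase, the last step of the chain. The log2 fold change was below 0 in 11 of its 13 tested members, with a median of -0.26, but 0 passed the adjusted p and 1 had an unadjusted p below 0.05. That median was 0.00, with 7 of 13 members below 0, without KD replicate 3, and -0.08 without NC replicate 1. It was the lowest of the 5 complexes with all libraries, but complex V was lower without NC replicate 1, KD replicate 1 or KD replicate 3, at -0.23, -0.20 and -0.21. COX7C (ENSSSCG00000040325, chromosome 2 from 94345436 to 94347709), a small structural subunit, had values of 261, 215 and 255 in NC and 198, 179 and 198 in KD embryos. The groups did not overlap, with a log2 fold change of -0.34 (SE 0.15, limma adjusted p = 0.997). COX6A1 (ENSSSCG00000039265, chromosome 14 from 40408600 to 40410810) is the widely expressed isoform of subunit 6A. Its values were 295, 308 and 304 in NC and 278, 235 and 245 in KD embryos, again without overlap (exact two-sided permutation p = 0.1), and its log2 fold change was -0.26 (SE 0.14, limma adjusted p = 0.997).

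Several complex IV subunits have tissue isoforms, and both forms were listed for subunits 6A, 7A and 7B. The muscle isoform COX6A2 had values of 5.84 to 17.6 over the 6 libraries and a log2 fold change of -0.43 (SE 0.55). It had no matched length, so it was not set against COX6A1 per kb. Of the 7A pair, COX7A1 is the heart and muscle form and COX7A2 the form of most tissues. COX7A1 was at 90.9 ± 25.4 per kb and COX7A2 at 34.8 ± 7.16 per kb in NC (SD, n = 3). In NC the muscle form thus had the higher level per kb, by more than the spread. Both genes were low, with NC means of 29.8 and 16.4 before division by mRNA lengths of 328 and 472 bases. In KD embryos they were at 66.7 ± 16.8 and 32.8 ± 24.7 per kb (SD, n = 3). In KD replicate 1 COX7A1 had the lower value, 15.6 against 23.6. Their log2 fold changes were -0.42 (SE 0.37) and -0.53 (SE 0.66). The KD libraries of COX7A2 were at 23.6, 20.8 and 2.12, against 12.8, 19.4 and 17.0 in NC, so its negative value rested on KD replicate 3, and the fold change was 0.43 without it. COX7A2L, a relative of these that takes part in supercomplexes of the chain, was at 1035 ± 100 in NC and 927 ± 65.5 in KD (SD, n = 3), a log2 fold change of -0.16.

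The testis isoform COX7B2, at 16.9, 21.1 and 14.9 in NC and 15.9, 3.59 and 14.2 in KD embryos, had the largest negative fold change of complex IV, -0.81 (SE 0.54, limma adjusted p = 0.997). KD replicate 2 alone stood apart, the groups overlapped, and the value was -0.21 without that library. Its partner COX7B had values of 138, 103 and 46.7 in NC and 106, 71.4 and 49.2 in KD embryos. COX8A was at 813, 876 and 772 in NC and 906, 1008 and 601 in KD embryos, so its KD libraries surrounded the NC libraries, with a log2 fold change of 0.00 and a 95% interval of -0.32 to 0.32. COX5B, with 42.8, 38.1 and 88.3 in NC and 78.9, 55.6 and 48.1 in KD embryos, had the largest positive value of the complex, 0.18 (SE 0.31). COX6C had a log2 fold change of -0.06 (SE 0.14).

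Complex V, the ATP synthase, had a median log2 fold change of -0.14, with 9 of 12 tested members below 0. The median ran from -0.23, without NC replicate 1 or 3, to -0.08, without NC replicate 2 or KD replicate 2, and without KD replicate 3 it was -0.21 with 9 of 13 members then tested below 0. Of the catalytic head, ATP5F1C (ENSSSCG00000034086, chromosome 10 from 63584288 to 63599537), the gamma subunit that forms the rotating central stalk, had the lowest adjusted p of the members. Its values were 368, 444 and 421 in NC and 307, 349 and 299 in KD embryos. The KD mean was 77.4% of the NC mean and the groups did not overlap. The log2 fold change was -0.37 (SE 0.13, 95% interval -0.64 to -0.09, limma adjusted p = 0.89), and it stayed between -0.45 and -0.31 when a single library was left out. The alpha subunit ATP5F1A, of the same head, had values of 790, 780 and 802 in NC and 808, 874 and 760 in KD embryos, giving a log2 fold change of 0.04 (SE 0.10). The epsilon subunit ATP5F1E had the largest positive value among all 57 members, 0.43 (SE 0.38, from 0.20 to 0.66 when a library was left out), at 16.2, 27.8 and 17.8 in NC and 25.6, 38.2 and 21.0 in KD embryos, with overlap.

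ATP5PO (ENSSSCG00000012042, chromosome 13 from 197509331 to 197519530) is the subunit that joins the head to the side stalk and confers oligomycin sensitivity. It was at 36.8, 45.8 and 45.8 in NC and 26.4, 35.1 and 31.3 in KD embryos. The groups did not overlap (exact two-sided permutation p = 0.1), and the log2 fold change was -0.46 (SE 0.29, limma adjusted p = 0.997).

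ATP5MC1, ATP5MC2 and ATP5MC3 encode the same mature c subunit of the membrane rotor with different import peptides. In NC embryos ATP5MC3 was at 806 ± 114, ATP5MC2 at 70.7 ± 8.25 and ATP5MC1 at 19.8 ± 1.57 per kb (SD, n = 3), so ATP5MC3 had by far the highest level per kb of the 3. ATP5MC3 had values of 645, 553 and 487 in NC and 627, 548 and 426 in KD embryos, with a log2 fold change of -0.08 (SE 0.15). ATP5MC2 had 350, 277 and 322 in NC and 296, 222 and 227 in KD embryos, with a log2 fold change of -0.36 (SE 0.15, limma adjusted p = 0.997), and KD replicate 1 reached into the NC range. ATP5MC1 (ENSSSCG00000017544, chromosome 12 from 25110540 to 25113481) had 15.7, 17.6 and 15.2 in NC and 9.75, 8.69 and 1.09 in KD embryos. Its mean was 16.2 in NC and 6.51 in KD, so it reached the minimum mean of 10 only through NC. It had the largest negative fold change of the 57 members, -1.51 (SE 0.65, 95% interval -2.89 to -0.14, limma adjusted p = 0.997), without overlap. Its size depended on KD replicate 3, without which it was -0.75, and on the pseudocount, as it was -0.71 with a pseudocount of 10 and -1.79 with 0.1. Reads shared between near-identical copies or processed pseudogenes, which are common for such small genes, are divided by estimation when transcripts are quantified, and this division was not checked.

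**Figure D3:**
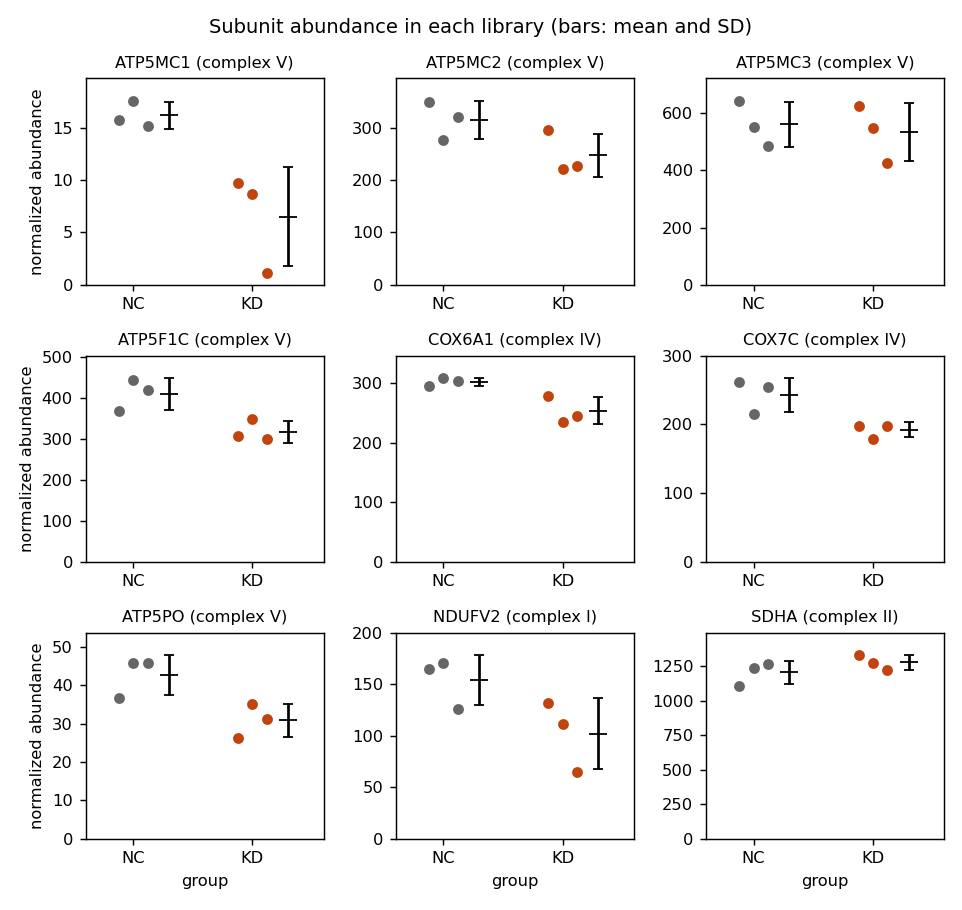
Normalized abundance in each library for 9 members, each panel on its own axis from 0, with NC libraries in grey, KD libraries in orange and the mean and SD beside them (n = 3). The groups do not overlap for ATP5MC1, ATP5F1C, ATP5PO, COX6A1 and COX7C, and they overlap for ATP5MC2, ATP5MC3, NDUFV2 and SDHA.

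KD replicate 3 was the library in which the members were most often lowest. The median deviation of the 57 members from their own means was -0.153 on the log2 scale there, and between -0.008 and 0.116 in the others, while over all genes it was 0.004 in KD replicate 3. It was the lowest library for 19 of the 57 members (33.3%) and for 18.3% of all genes. Without it, 27 of 58 members then tested (46.6%) had a log2 fold change below 0, against 48.8% of all genes, and the median was 0.01. Without KD replicate 1 the median was -0.17, with 42 of 57 members below 0. In KD replicate 3 the median deviation was -0.203 for the 31 members with an mRNA under 1000 bases and -0.02 for the 17 longer members. Over all libraries both sets leaned below 0. The log2 fold change was below 0 in 19 of the 31 short members (61.3%, median -0.08) and in 10 of the 17 longer ones (58.8%, median -0.06).

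Short transcripts as a whole leaned below 0 too. Over all 400 tested genes with an mRNA under 1000 bases, 61.8% had a log2 fold change below 0, with a median of -0.05, and KD replicate 3 was the lowest library for 28.7% of them. The 9369 longer genes had a median of 0.01, with 48.5% below 0. When the values were corrected for GC content and mRNA length, the median over the 48 members with a length went from -0.08 to 0.01 and the number below 0 from 29 to 23. Groups then did not overlap, with KD below NC, in 4 members, ATP5MC1, COX6A1, COX7C and NDUFB10, all among the 6 named before. The corrected medians were 0.05 in complex I, -0.18 in the 8 complex IV members with a length, the same as before correction, and -0.04 in complex V. Beyond these values, the part of transcript length or of this library in the single differences was not tested.

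**Figure D4:**
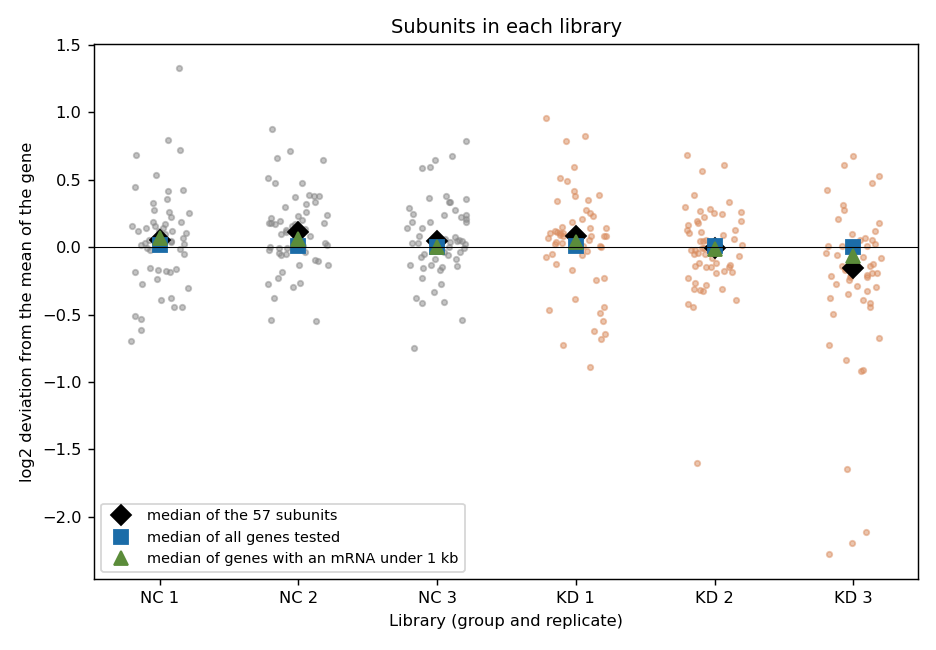
Log2 deviation of each of the 57 tested members from its own mean over the 6 libraries (points), by library, with the median of the members, of all genes and of genes with an mRNA under 1000 bases. The members' median is -0.153 in KD replicate 3 and the median of all genes is near 0 in every library.

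Of the members, 8 had a mean below 10 over the 6 libraries and were not tested. In complex I these were NDUFA13, NDUFB4 and NDUFB7 among the accessory subunits and NDUFS7, NDUFS8 and NDUFV1 among the core subunits. In complex IV it was COX6B2, the testis isoform of subunit 6B, and in complex V the inhibitor ATP5IF1. NDUFV1, which binds NADH, had values of 5.21, 21.9 and 4.28 in NC and 9.73, 10.1 and 1.10 in KD embryos. NDUFS7 ran from 0.562 to 5.15 in NC and from 0 to 12.3 in KD embryos. These values rest on few reads in most libraries, and no direction can be read from them.

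A list of 87 known subunits was also searched, and the 22 that the table does not name were looked up by identifier. A further 6 were found through the RefSeq name table: NDUFA2, NDUFB1, NDUFB5, UQCRFS1, UQCR11 and COX5A. Of these 4 were tested and 0 passed the adjusted p by limma. COX5A, chosen after its values were seen, was at 91.5, 97.5 and 83.4 in NC and 65.5, 71.6 and 73.5 in KD embryos, without overlap, with a log2 fold change of -0.37 (SE 0.21, limma adjusted p = 0.997). The Rieske protein UQCRFS1 was at 187 ± 53.5 in NC and 183 ± 50.1 in KD (SD, n = 3).

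The rest of the pathway gave 0 genes past the adjusted p in each list. CYCS, cytochrome c itself, was at 1086, 1020 and 894 in NC and at 937, 1005 and 1044 in KD embryos, with a 95% interval of -0.23 to 0.22 on the log2 scale, and COX4I1 had a log2 fold change of 0.05 (SE 0.39). All 13 mitochondrially encoded genes had log2 fold changes below 0, against 49.4% of all genes. They ran from -0.25 to -0.02 with a median of -0.07. The groups overlapped in the summed share of the 13 genes. It was lowest in NC replicate 3 (3.30%), and was 3.34%, 3.35% and 3.56% in KD replicates 1, 2 and 3. Of the 13 genes, ND4L (-0.25, SE 0.09, limma adjusted p = 0.852) and ND3 (-0.21, SE 0.09, limma adjusted p = 0.997) had all KD values below all NC values, against 4.94% of all genes. With the GC and length correction they were at -0.06 and -0.05. ND4L was at 2159, 2103 and 2021 in NC and at 1769, 1762 and 1751 in KD embryos.

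Assembly factors build the complexes without staying in them. Of 10 tested for complex I, 6 had log2 fold changes above 0, and the outermost were DMAC2 (0.33, SE 0.25) and the iron-sulfur carrier NUBPL (0.33, SE 0.20). When a library was left out DMAC2 ran from 0.14 to 0.65. NUBPL was at 103, 74.8 and 88.1 in NC and at 104, 108 and 120 in KD embryos, without overlap. Of 8 tested for complexes II and III, 5 were below 0, with UQCC1 at -0.53 (SE 0.56, from -0.99 to -0.05 when a library was left out) and UQCC3 at -0.55 (SE 0.38). The complex IV factors SURF1 and COX16 had log2 fold changes of 0.29 (SE 0.25) and 0.33 (SE 0.55), and 9 of 15 tested factors were below 0. COX16 had a mean of 9.08 in NC and 11.9 in KD, so it reached the minimum mean of 10 only through KD. For complex V, ATPAF2 was at -0.21 (SE 0.37) and TMEM70 at -0.10 (SE 0.14).

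Among 18 tested regulators of mitochondrial gene expression, the outermost was TFB2M, a factor of mitochondrial transcription. Its values were 4.36, 6.11 and 8.14 in NC and 15.3, 9.93 and 37.1 in KD embryos. The groups did not overlap, with a log2 fold change of 1.43 (SE 0.57, limma adjusted p = 0.997), and the highest KD value was that of KD replicate 3. The coactivator PPARGC1A had a log2 fold change of 0.73 (SE 0.65), with 31.5 in KD replicate 3 and 5.98 and 6.93 in the other KD libraries. Without KD replicate 3 both genes had a mean below 10 and were not tested. The NC means of TFB2M and PPARGC1A, 6.2 and 6.41, were themselves below 10, so both passed the filter only through the KD libraries. Of the 18 regulators, 8 had log2 fold changes below 0. KD values lay wholly below NC values in 2 and wholly above in 1, which was TFB2M, against 4.94% and 4.85% of all genes. The 2, named after their values were seen, were MTERF3 (-0.27, SE 0.12) and TWNK (-0.25, SE 0.16), each with a limma adjusted p of 0.997. MTERF3 was at 523, 573 and 611 in NC and at 513, 467 and 436 in KD embryos. NRF1 itself, whose element was searched in the promoters, was at 46.2 ± 9.63 in NC and 52.3 ± 18.4 in KD (SD, n = 3), and YY1 at 364 ± 44.7 and 383 ± 15.4. These last values were named for the motif search.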

How the data were processed

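The members and gene lists were chosen with earlier results of these data known. Per the labels and methods, the authors prepared mRNA libraries, quantified reads against porcine transcripts of Sscrofa11.1 with Salmon 0.14.1 and used DESeq2. The file the authors deposited holds normalized signal for 17678 genes, 3575 of them without a name, and no column of another sample. Low values lay on a common step in 64.0% to 72.3% of cases (tolerance 0.05 of a step), so the reads behind the values could not be recovered and a count test was left out, although the design allowed for one.

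Genes with a mean of at least 10 were tested with limma 3.58.1 (R 4.3.3) on log2(value + 1) with a variance trend and Benjamini-Hochberg adjustment, called at 0.05, and single members by an exact permutation test (scipy 1.17.1). The scripts were tested on simulated data. Lengths, starts and promoters came from RefSeq (Sscrofa11.1), matched by symbol for 81.5% of tested genes. Named genes were, per complex, the outermost fold changes and the highest levels, all complex II subunits, isoforms, members without overlap or below the filter, and the 2 largest changes of each other list. Alternatives were leaving out the filter or the variance trend, a minimum mean of 100, pseudocounts of 0.1 and 10, quantile normalization, TMM-like rescaling, GC and length correction, the replicate block, median mRNA lengths, and leaving out each library. Spike-in RNAs were not used here, so total mRNA per embryo was not assessed. The values of 1 member are not reported here.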

Additional observations from a re-analysis of the deposited data

How the results depend on the processing

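No member passed an adjusted p of 0.05 in any alternative that was run. The count of all genes past it, 19, was 0 without the variance trend (622 genes at an unadjusted p below 0.05, against 553), 33 with the GC and length correction, where 17 passed among the same 9769 genes uncorrected, 54 with that correction and the replicate block, and 11 to 19 when a library was left out. The adjusted p of SIN3A by limma was 0.423 without the variance trend. With the replicate block 26 genes passed. Same-numbered libraries had correlations of 0.109, 0.111 and 0.0872 after subtraction of group means, and libraries of unlike number -0.0828 to -0.0215. Every library thus correlated best with its own number, weakly. The sources do not say that the numbers mark pairs, so the main fit did not take them as such, and a shared batch was not tested. The block changed no call of a member.

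The median over members, -0.08, was 0.01 with the GC and length correction (alone and with the block) and -0.17 to 0.01 when a library was left out. The median of complex I was 0.05 with that correction in both forms and -0.16 to 0.03 with a library left out. The median of complex IV was -0.18 with a pseudocount of 10, -0.16 at a mean of at least 100 (5 members) and -0.18 with the correction in both forms (8 members, whose uncorrected median was also -0.18), and -0.26 to 0.00 with a library left out. The number of members at an unadjusted p below 0.05 ran from 1 to 6 in those fits. With median mRNA lengths the median NC level was 95.5 per kb instead of 89.2. Over 31 members, 466 comparisons were made, of which 440 kept their direction and 26, in 12 members, reversed. As no member passed in any fit, the side of the threshold was the same in all of them. The fits that differ only in the variance trend, the filter or the replicate block cannot alter a fold change, so their agreement in direction was given beforehand. In size, 24 of the 31 members moved by over 1.5 times when some library was left out, and 5 with a pseudocount of 10, where ATP5MC1 was at -0.71, NDUFA11 at -0.54, COX7B2 at -0.43 and, of the regulators, TFB2M at 0.83. With the correction, in both forms, ATP5MC3 was at 0.01, COX6C at 0.06 and CYCS at 0.09. With a library left out, the log2 fold change ran from -0.01 to 0.09 for ATP5F1A, -0.21 to 0.07 for ATP5MC3, -0.53 to 0.09 for ATPAF2, -0.18 to 0.31 for COX4I1, -0.05 to 0.55 for COX5B, -0.14 to 0.02 for COX6C, -1.06 to 0.43 for COX7A2, -0.72 to 0.05 for COX7B, -0.15 to 0.22 for COX8A, -0.08 to 0.06 for CYCS, -0.07 to 0.15 for NDUFA1, -0.06 to 0.12 for NDUFA6, -0.08 to 0.08 for SDHB, -0.19 to 0.01 for UQCR10 and -0.49 to 0.23 for UQCRC1. The cause was not tested.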
